A study of Mus musculus with 18 samples.

Results

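Chromatin accessibility was described at 7 genes of DNA replication and mitosis: Top2a, Aurkb, Mcm2, Mcm3, Mcm5, Mki67 and Pcna. Every peak of the deposited table of 61224 peaks was taken whose annotation names one of these symbols, which gave 21 peaks of 500 bp. By the deposited classes, 10 were promoter peaks, 8 were flanking, and 1 each was intronic, exonic and in a 5' UTR. A further gene symbol was attached to 8 of the 21 peaks, so their counts cannot be given to 1 gene alone. Counts were also summed over all peaks of a symbol, which gave 1 value for each of the 7 genes among 20326 genes. All 21 peaks and all 7 genes passed the filter on low counts.

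The libraries were made by ATAC-seq, in which the transposase Tn5 cuts and tags open chromatin, from 10000 sorted cells each. The 9 mPTCL libraries are murine peripheral T-cell lymphomas that grew in CD3KO mice of the C57BL/6 strain after they received p53KO T cells. They were sorted from liver with no marker named, and a CD3KO host still has its own B cells, NK cells and myeloid cells. The 9 normal libraries came from WT C57BL/6 mice, 3 for each cell type: CD27-, CD11b+ NK cells of the spleen, NKT cells that bound CD3 antibody and a CD1d tetramer with its lipid, and CD3+ Thy1+ T cells of the spleen. The labels disagree on the tissue of the NKT cells: their phenotype field says liver, while their titles carry Sp, as do those of the spleen cells. The sources used here give no ages. Genotype, sort gate and tissue (for NK and T cells, and possibly for NKT cells) changed together between the lymphomas and the normal groups and cannot be told apart. The labels do not say whether libraries of a group came from separate mice. The p-values therefore rest on the spread among libraries, and that spread may be technical.

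A cell copies its DNA once per division, and the machinery for this is made mostly in cycling cells. Mcm2, Mcm3 and Mcm5 encode subunits of the ring-shaped MCM helicase, which is loaded onto origins before S phase and unwinds the DNA. Pcna encodes the sliding clamp that holds DNA polymerases on their template. Top2a encodes topoisomerase II alpha, which untangles the copied chromosomes, Aurkb encodes the Aurora B kinase of the chromosomal passenger complex, and Mki67 encodes the proliferation marker Ki-67, which coats mitotic chromosomes. Promoters of replication genes are often bound by E2F factors, and promoters of mitotic genes by the DREAM and MuvB complexes at CHR elements and by NF-Y at CCAAT boxes. Promoters of both kinds are commonly open in resting as well as in dividing cells, and ATAC-seq measures their openness, not their transcription.

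Promoter sequences are shown because many of the called differences lie at promoter peaks, and the runs show which letters those peaks hold. No link between letters and accessibility was tested. They were taken from RefSeq on GRCm38.p6 for 6 of the 7 genes, as windows of 250 bases before to 50 after each gene's start. Matches were counted on both strands for E2F (TTCCCGC or else TTCGCGC or else TTGCCGC or else TTGGCGC), for CHR (TTTGAA or else TTCGAA) and for CCAAT. Among 32851 windows, 9.57% held an E2F spelling, 19.2% a CHR spelling and 37.4% a CCAAT box. In the following runs, written 5′ to 3′ on the gene's strand, capitals mark these matches. Each run lies wholly inside a deposited promoter peak of its gene. The Top2a run covers the 250 bases before the start (chr11:99024190-99024439, minus strand), and the Mki67 run the 200 bases before it (chr7:135716380-135716579, minus strand).
Top2a: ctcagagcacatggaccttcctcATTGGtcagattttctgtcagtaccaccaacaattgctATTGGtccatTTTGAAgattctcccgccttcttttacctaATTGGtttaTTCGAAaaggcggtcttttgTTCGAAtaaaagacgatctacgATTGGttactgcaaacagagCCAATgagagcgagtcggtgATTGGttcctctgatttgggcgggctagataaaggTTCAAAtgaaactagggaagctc
Mki67: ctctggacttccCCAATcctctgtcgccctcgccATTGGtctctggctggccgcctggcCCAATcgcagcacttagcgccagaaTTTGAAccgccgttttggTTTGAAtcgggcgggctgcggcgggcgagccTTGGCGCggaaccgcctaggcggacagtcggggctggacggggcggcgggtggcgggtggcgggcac

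The Top2a window held 6 CCAAT boxes and 4 CHR spellings, counts reached in 0.0791% and 0.0244% of windows. Its 6 CCAAT boxes and 4 CHR spellings all lie in the printed run, and none of the 4 E2F spellings occurred in the window. The Mki67 window held 3 CCAAT boxes, 2 CHR spellings (as many in 2.54% of windows) and 1 E2F spelling. The helicase genes Mcm5 and Mcm3 carried another set. Each had 3 E2F spellings, a count reached in 0.131% of windows, and 3 CCAAT boxes, a count reached in 3.37%, and neither had a CHR spelling. A pair of the E2F matches overlaps in each gene, because the spelling on one strand runs into that on the other. The Mcm5 run is the 170 bases before the start (chr8:75109339-75109508, plus strand). The Mcm5 CCAAT box at position 7 after the start lies outside this run. For Mcm3, the 120 bases before the start (chr1:20820313-20820432, minus strand) hold the CCAAT boxes, and the E2F spellings lie in the 30 bases from position 20 to 49 after it (chr1:20820264-20820293).
Mcm5: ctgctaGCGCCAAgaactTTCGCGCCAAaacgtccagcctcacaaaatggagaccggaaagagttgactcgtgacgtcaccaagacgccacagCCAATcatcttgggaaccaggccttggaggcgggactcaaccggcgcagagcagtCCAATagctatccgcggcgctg
Mcm3 before the start: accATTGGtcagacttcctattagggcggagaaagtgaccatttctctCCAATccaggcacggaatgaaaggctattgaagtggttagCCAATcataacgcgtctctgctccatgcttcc
Mcm3 after the start: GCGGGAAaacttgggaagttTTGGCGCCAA

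The Mcm2 window held 1 CHR spelling and 1 CCAAT box, and the Pcna window 1 CCAAT box. These counts describe letters only.

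Total counts in peaks ran from 670358 to 4844441 in mPTCL, 417107 to 596601 in NK, 1433904 to 9097014 in NKT and 979441 to 2358023 in T libraries. NK libraries were the shallowest, with a median of 4 to 6 counts in a peak, so a peak that looks low there rests on few reads. Levels are CPM, counts scaled to a common library total, with totals adjusted by TMM, and differences are log2 fold changes with their standard error (SE) from edgeR's quasi-likelihood fit of all 18 libraries. A difference is called where the Benjamini-Hochberg adjusted p, taken over all peaks or all genes of a comparison, is under 0.05. The T-cell markers, 6 of 6 measured, summed to 270.4 to 418 CPM in mPTCL, 242 to 343 CPM in NK, 595 to 614 CPM in NKT and 389 to 497 CPM in T libraries. NK-cell markers, 5 of 5 measured, summed to 122 to 198 CPM in mPTCL, 153 to 172 CPM in NK, 54.8 to 87.4 CPM in NKT and 58.8 to 91.8 CPM in T libraries. NKT-cell markers, 3 of 3 measured, summed to 28.5 to 79.8 CPM in mPTCL, 86.1 to 99.1 CPM in NK, 108 to 132 CPM in NKT and 46.1 to 61.6 CPM in T libraries.

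Only 3 of 6 myeloid markers, 2 of 5 hepatocyte markers and 2 of 5 B-cell markers have a peak. The myeloid and hepatocyte markers Lyz2, Csf1r, Adgre1, Alb, Apoa1 and Ttr have none, and no measured marker was at 0 counts over a whole group. Myeloid markers summed to 25.6 to 69.1 CPM in mPTCL, 23.7 to 55.4 CPM in NK, 7.26 to 15.7 CPM in NKT and 14.5 to 25.9 CPM in T libraries. Hepatocyte markers summed to 29.2 to 78.5 CPM in mPTCL, 19.4 to 53.8 CPM in NK, 3.96 to 13.9 CPM in NKT and 11.8 to 20.7 CPM in T libraries. For B-cell markers the sums were 25.5 to 87.0 CPM in mPTCL, 49.01 to 86.1 CPM in NK, 7.92 to 11.3 CPM in NKT and 18.4 to 29.6 CPM in T libraries. Endothelial and stromal markers, 4 of 5 measured, summed to 111 to 229.6 CPM in mPTCL, 114 to 245 CPM in NK, 95.7 to 109.8 CPM in NKT and 134 to 174 CPM in T libraries. Erythroid markers, 4 of 4 measured, summed to 45.0 to 78.1 CPM in mPTCL, 32.3 to 41.0 CPM in NK, 38.9 to 51.8 CPM in NKT and 30.7 to 62.2 CPM in T libraries. The myeloid, hepatocyte, B-cell and endothelial and stromal sums were higher in every mPTCL library than in every NKT library. Against T cells this held for hepatocyte markers alone, and the other sums overlapped. In NK libraries the sums of these lists overlapped with those of mPTCL. The part of such markers in the results was not tested.

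The 7 genes did not move together. Top2a and Aurkb were higher in mPTCL than in NK cells, and their difference from NKT and T cells did not pass the test. Pcna, Mcm2 and Mcm3 were lower in mPTCL than in NKT and T cells. Mcm2 and Mcm5 were also called lower in mPTCL than in NK cells, and Mki67 was called in no comparison. Against NK cells 2 member genes were called higher and 2 lower, where 11.2% and 10.3% of all genes were, 21.5% in either direction. Against NKT cells 3 of the 7 were called, all lower, where 45.6% of all genes were called and 20.2% were called lower. Against T cells it was again 3, all lower, where 30.9% were called and 14.7% were called lower. These counts over 7 genes were not tested against the genome.

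**Figure D1:**
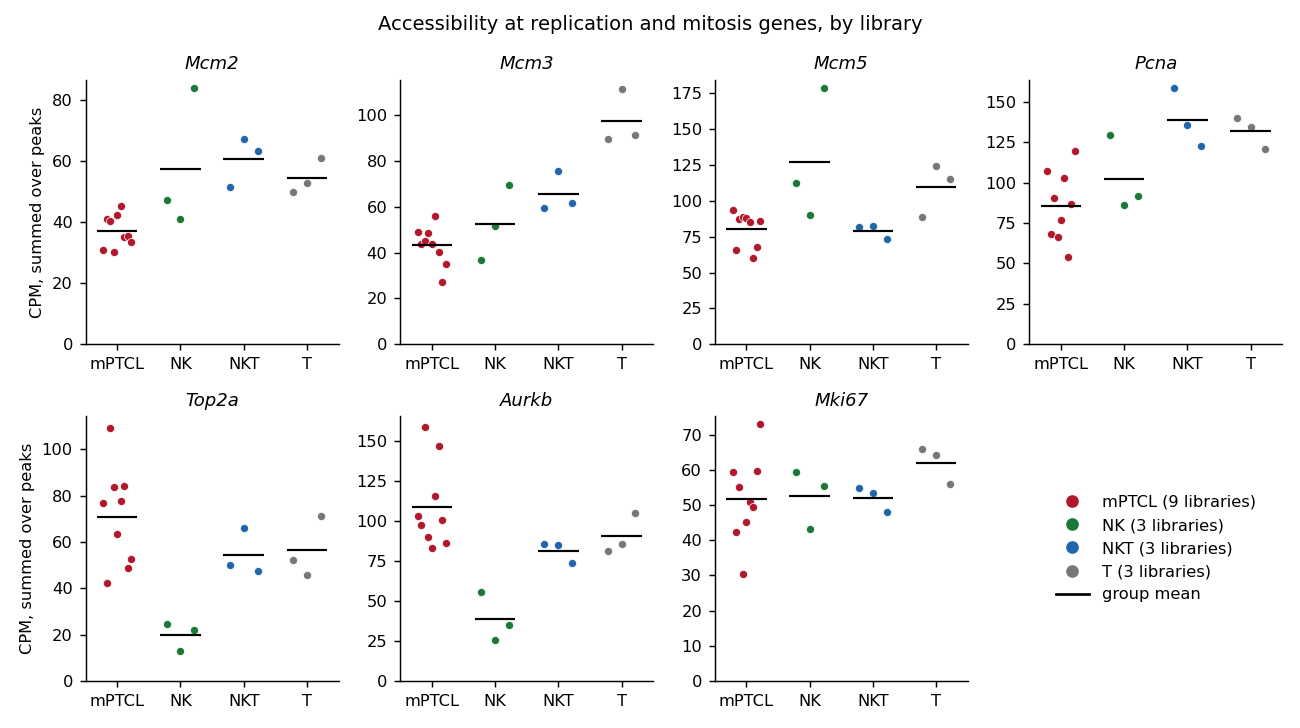
Accessibility of each gene in every library, as CPM summed over its peaks, with a line at the group mean. Each panel has its own vertical axis from 0. For Top2a and Aurkb the 3 NK libraries lie below all other libraries, and for Pcna, Mcm2 and Mcm3 the 9 mPTCL libraries lie below all NKT and T libraries.

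Top2a was accessible at 42.2, 76.6 and 109 CPM (lowest, median and highest of 9) in mPTCL libraries, against 24.6, 12.9 and 22.1 CPM in NK, 50.1, 66.2 and 47.3 CPM in NKT and 52.4, 45.6 and 71.0 CPM in T libraries. Every NK library lay below every library of the 3 other groups, while the mPTCL range covered all NKT and T values. Top2a was higher in mPTCL than in NK cells by 1.84 ± 0.33 on the log2 scale (adjusted p = 0.000334). The differences from NKT cells (0.39 ± 0.24, adjusted p = 0.18) and from T cells (0.34 ± 0.25, adjusted p = 0.300) were not called. In bulk libraries, fewer cells with an open site and a less open site in every cell cannot be told apart.

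Top2a was also lower in NK cells than in the other normal cells. The difference was −1.45 ± 0.37 against NKT cells (adjusted p = 0.0101) and −1.499 ± 0.38 against T cells (adjusted p = 0.0178). In NK against NKT cells 2 of the 7 genes were called, both lower, where 14.8% of genes were called and 6.28% were called lower. The same number was called lower in NK against T cells, where 5.48% of genes were called and 2.19% were called lower. These 2 genes are Top2a and Aurkb. The NK comparisons and the lymphoma-over-NK comparison share the 3 NK libraries and so do not count as separate evidence. The calls of Top2a against T cells were lost without T replicate 3 (−1.28, adjusted p = 0.0948), NK replicate 2 (−1.29, adjusted p = 0.0918) or NK replicate 3 (−1.59, adjusted p = 0.0626). Against NKT cells the call was lost without NKT replicate 2 (−1.27, adjusted p = 0.0507) or NK replicate 2 (−1.23, adjusted p = 0.055).

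The Top2a difference lay at its promoter peak, chr11:99024052-99024552 on the mm10 build, which contains the printed run. It held 35.7, 71.5 and 106 CPM (lowest, median and highest) in mPTCL, against 20.7, 12.6 and 15.9 CPM in NK, 60.8, 85.3 and 61.9 CPM in NKT and 59.7, 48.5 and 86.5 CPM in T libraries. Only the NK libraries stood apart, with 26 reads between them. The log2 fold change was 2.04 ± 0.36 in mPTCL over NK (adjusted p = 0.000342), −2.08 ± 0.39 in NK over NKT (adjusted p = 0.000672) and −1.99 ± 0.40 in NK over T (adjusted p = 0.00346). It was −0.043 ± 0.25 in mPTCL over NKT (adjusted p = 0.9) and 0.046 ± 0.26 in mPTCL over T (adjusted p = 0.915). All 5 of these calls or missing calls were the same without any single library. Promoter peaks were divided by mean level into 10 bins of equal size. Among the 1998 peaks of its bin this peak stood above 99.5% in mPTCL over NK and above only 0.45% in NK over T, where the medians of that bin were −0.031 and −0.50.

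The other Top2a peak, flanking at chr11:99027091-99027591, was weak. It held 0, 5.88 and 13.3 CPM (lowest, median and highest) in mPTCL, 4.15, 0 and 6.35 CPM in NK, 0, 1.06 and 0.548 CPM in NKT and 2.13, 6.06 and 1.87 CPM in T libraries. All mPTCL libraries but 1 lay above the NKT libraries. Its log2 fold change in mPTCL over NKT was 3.32 ± 0.89 (adjusted p = 0.00423), a value that rests on 11 NKT reads. Under cyclic loess normalization this fell to 0.81 and was not called.

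Aurkb followed the same order of groups. Its 7 peaks summed to 83.1, 101 and 159 CPM (lowest, median and highest) in mPTCL, against 55.4, 25.9 and 34.8 CPM in NK, 85.8, 84.7 and 73.4 CPM in NKT and 81.4, 85.3 and 105 CPM in T libraries. The NK libraries again lay below all others, and the mPTCL range overlapped with NKT and T. Aurkb was higher in mPTCL than in NK cells by 1.504 ± 0.27 (adjusted p = 0.000262). The differences of 0.43 ± 0.21 from NKT cells (adjusted p = 0.0891) and 0.27 ± 0.21 from T cells (adjusted p = 0.344) were not called.

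In NK cells Aurkb was lower than in NKT cells by a log2 fold change of −1.07 ± 0.30 (adjusted p = 0.0167). Against T cells it was −1.24 ± 0.30 (adjusted p = 0.0153). The first call was lost without NKT replicate 2 (−1.04, adjusted p = 0.0539), NK replicate 2 (−0.87, adjusted p = 0.0883) or NK replicate 3 (−0.99, adjusted p = 0.079). The second was lost without T replicate 3 (−1.11, adjusted p = 0.075), NK replicate 2 (−1.03, adjusted p = 0.0865) or NK replicate 3 (−1.16, adjusted p = 0.0804).

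Aurkb has 4 peaks upstream, 1 at its promoter, 1 in an intron and 1 further downstream. Ctc1, a gene of the telomere-binding CST complex, shares the first 3 of these, and 9330160F10Rik shares the last. The promoter peak, chr11:69045504-69046004, held 25.5, 31.8 and 54.1 CPM (lowest, median and highest) in mPTCL, against 20.7, 8.43 and 3.17 CPM in NK, 26.4, 35.0 and 27.8 CPM in NKT and 37.3, 22.5 and 37.4 CPM in T libraries. All NK values lay below the lowest value of every other group, on 16 NK reads. The log2 fold change was 1.75 ± 0.43 in mPTCL over NK (adjusted p = 0.00879), and it was not called without NK replicate 2 (1.63, adjusted p = 0.0508) or NK replicate 3 (1.30, adjusted p = 0.0712). It was −1.53 ± 0.48 in NK over NKT (adjusted p = 0.0263) and −1.65 ± 0.49 in NK over T (adjusted p = 0.0428), and neither was called with RLE size factors (−1.03 and −1.36) or in 6 other alternatives. Without NK replicate 3 they were −0.89 (adjusted p = 0.242) and −1.09 (adjusted p = 0.219), and 7 and 11 of the 18 fits without 1 library ended the calls.

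The upstream peak at chr11:69040904-69041404, shared with Ctc1, showed the same pattern. It held 12.1, 23.5 and 35.5 CPM (lowest, median and highest) in mPTCL, against 8.29, 8.43 and 3.17 CPM in NK, 31.97, 24.1 and 22.5 CPM in NKT and 21.3, 22.5 and 28.5 CPM in T libraries. The NK values were the lowest of the 4 groups without overlap. The difference was 1.80 ± 0.51 in mPTCL over NK (adjusted p = 0.0204), −2.004 ± 0.55 in NK over NKT (adjusted p = 0.0131) and −1.92 ± 0.56 in NK over T (adjusted p = 0.0418). The first of these was lost without NK replicate 3 (1.47, adjusted p = 0.105) and with scaling within each chromosome (1.33, adjusted p = 0.073). With RLE size factors the other two were −1.52 and −1.62 and not called. Leaving out 1 library ended the call in NK over NKT in 2 of 18 fits and that in NK over T in 13. The 2 other peaks shared with Ctc1 had log2 fold changes of 1.17 ± 0.44 and 1.69 ± 0.64 in mPTCL over NK and were not called (adjusted p = 0.0815 and 0.0867).

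The remaining Aurkb peaks were thin. The intronic peak, chr11:69046128-69046628, ran from 2.79 to 12.6 CPM in mPTCL and held 0, 0 and 3.17 CPM in NK libraries, which is 2 reads. The flanking peak at chr11:69043669-69044169 ran from 0 to 11.5 CPM in mPTCL and was called in no comparison. The downstream peak at chr11:69053676-69054176 held 0, 3.74 and 7.65 CPM (lowest, median and highest) in mPTCL, against 0, 0.303 and 0.411 CPM in NKT and 0, 7.79 and 11.2 CPM in T libraries. It was called higher in mPTCL over NKT (3.46 ± 1.05, adjusted p = 0.00968) and lower in NKT over T (−4.22 ± 1.16, adjusted p = 0.0248), on 5 NKT reads. The groups overlapped in both comparisons, and cyclic loess turned the first to −0.024 with no call.

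**Figure D2:**
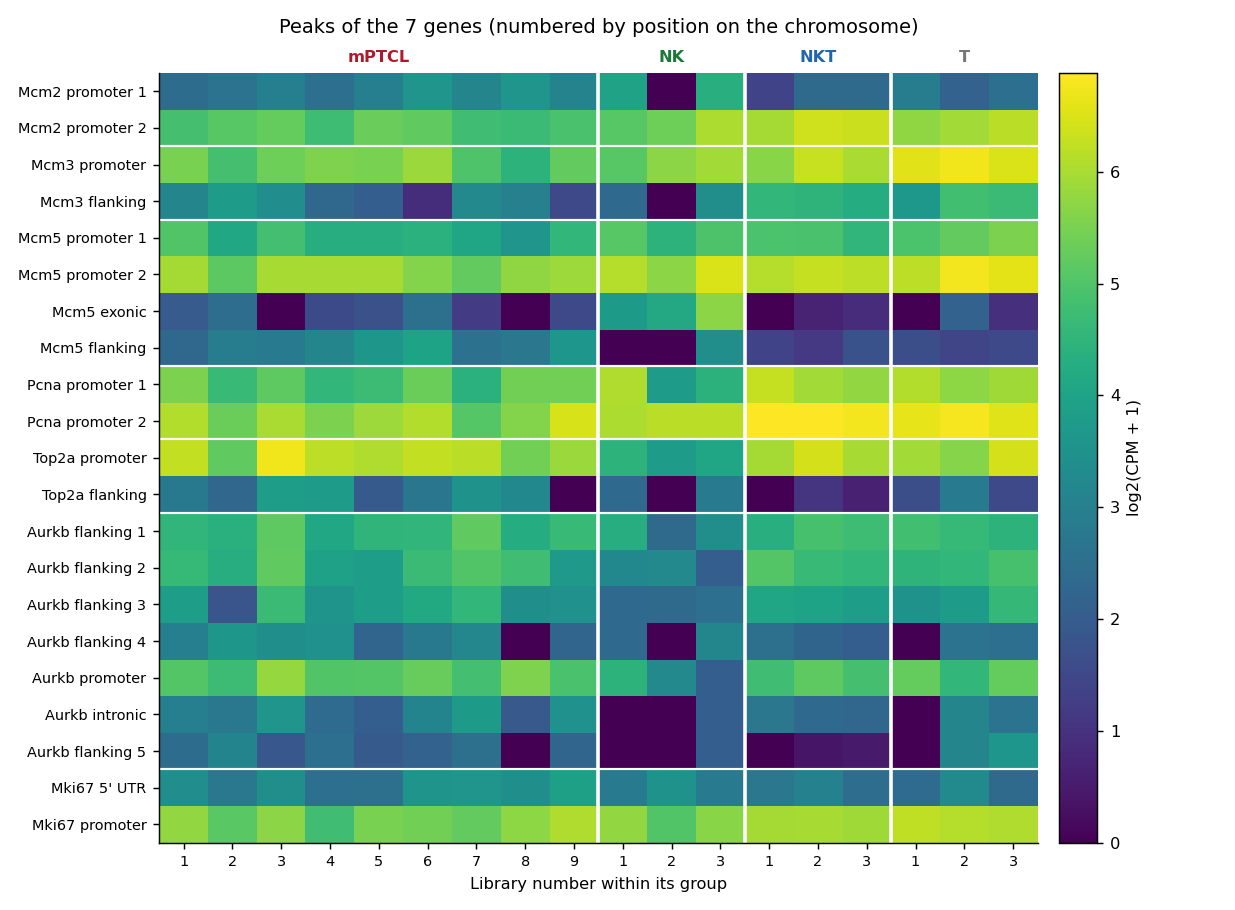
All 21 peaks in the 18 libraries, coloured by log2(CPM + 1), with 1 column per library and peaks of a gene ordered by position. The promoter peak of Top2a is darkest in the 3 NK columns, and that of Aurkb in NK replicates 2 and 3. The exonic Mcm5 peak is brightest in the 3 NK columns.

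Both genes lie on chromosome 11, which as a whole was more accessible in the lymphomas. Of its 1741 genes, 28.8% were called higher in mPTCL over NK, 40.9% in mPTCL over NKT and 34.1% in mPTCL over T, while 0.976%, 2.18% and 1.32% were called lower. The median log2 fold change of the chromosome's genes was 0.65 over NK, 0.49 over NKT and 0.58 over T. In every mPTCL library the chromosome's median deviation from the mean of the 18 libraries was above 0, from 0.077 to 0.62. It was below 0 in every normal library, from −0.40 to −0.14 in NK, −0.24 to −0.084 in NKT and −0.31 to −0.095 in T libraries. The difference of Top2a or Aurkb from a normal group therefore contains this shift of the chromosome.

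Each library's deviation of Top2a was then set against the median deviation of the other chromosome 11 genes. The result averaged 0.083 ± 0.37 in mPTCL (SD, n = 9, from −0.55 to 0.47), against −1.08 ± 0.41 in NK, 0.24 ± 0.20 in NKT and 0.32 ± 0.21 in T libraries (SD, n = 3 each, all on the log2 scale). Every mPTCL value lay above every NK value, and the mPTCL range overlapped with NKT and T. Top2a stood above its chromosome by 1.16 more in mPTCL than in NK libraries (two-sided exact permutation test, p = 0.00455, the smallest that 220 arrangements can give, adjusted p = 0.0136 over 6 tests). Over NKT the value was −0.15 (exact permutation p = 0.577, adjusted p = 0.577) and over T it was −0.24 (exact permutation p = 0.314, adjusted p = 0.47). The same measure of Aurkb averaged 0.035 ± 0.21 in mPTCL (SD, n = 9), against −0.85 ± 0.42 in NK, 0.13 ± 0.14 in NKT and 0.33 ± 0.12 in T libraries (SD, n = 3 each).

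For Aurkb the difference was 0.89 in mPTCL over NK (exact permutation p = 0.00455, adjusted p = 0.0136), with no overlap between the groups. It was −0.099 over NKT (exact permutation p = 0.455, adjusted p = 0.545) and −0.29 over T (exact permutation p = 0.0545, adjusted p = 0.109). With 2 libraries in a normal group the test cannot reach the threshold after adjustment, and the values over NK without 1 NK library were 0.93 to 1.31 for Top2a and 0.67 to 1.09 for Aurkb. In mPTCL over NK, the log2 fold change of Top2a was above that of 93.3% of the other 1740 genes of the chromosome, and that of Aurkb above 88.5%. In mPTCL over NKT these shares were 45.1% for Top2a and 47.1% for Aurkb, and in mPTCL over T 34.3% and 28.8%. When scaling was done within each chromosome, the differences over NK were 1.27 for Top2a and 0.94 for Aurkb and were called. Those over NKT became −0.074 and −0.039, and those over T −0.17 and −0.26, with no call.

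**Figure D3:**
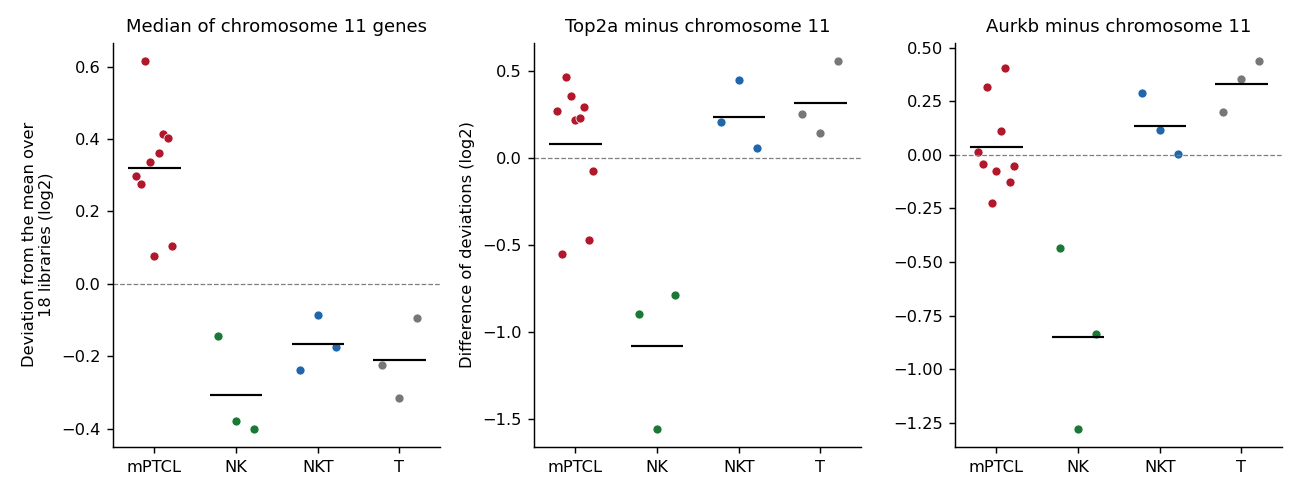
Left, the median deviation of chromosome 11 genes from the mean over 18 libraries, by library (log2). Middle and right, the deviation of Top2a and of Aurkb minus that median. Lines are group means. The mPTCL libraries are above all normal libraries on the left, and after the subtraction only the NK libraries stand apart, below the rest.

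The neighbours of the 2 genes were compared in the same way. At Top2a, the nearest genes with a peak are Gm22061 and Gjd3 on one side and Igfbp4 and Tns4 on the other. None of these 4 was called in mPTCL over NK, with log2 fold changes of 0.50 ± 0.53, 0.80 ± 0.56, 0.49 ± 0.45 and 2.71 ± 1.09. They have only 1 or 2 peaks each, and their standard errors were large. The value of Tns4 (adjusted p = 0.0739) was above the 1.84 of Top2a, so the missing calls do not set Top2a apart from its neighbours. Igfbp4, which encodes an IGF-binding protein, was called higher in mPTCL over NKT (1.11 ± 0.39, adjusted p = 0.022), as was Tns4, which encodes a focal-adhesion protein (1.88 ± 0.69, adjusted p = 0.0279). At Aurkb, all 4 neighbours were called higher in mPTCL over NK. They are Pfas, an enzyme of purine synthesis (1.23 ± 0.35, adjusted p = 0.0124), Borcs6, a subunit of the lysosomal BORC complex (0.95 ± 0.23, adjusted p = 0.00376), Ctc1 (1.13 ± 0.25, adjusted p = 0.00174) and 9330160F10Rik (1.497 ± 0.30, adjusted p = 0.000995). Of the 4, 9330160F10Rik was also called higher over NKT (0.95 ± 0.24, adjusted p = 0.00273). Ctc1 and 9330160F10Rik share peaks with Aurkb, so their values are not independent of it.

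Pcna, the sliding clamp, was less accessible in the lymphomas than in NKT and T cells. It held 54.2, 87.0 and 119.5 CPM (lowest, median and highest) in mPTCL, against 129, 86.2 and 91.7 CPM in NK, 158, 136 and 123 CPM in NKT and 140.1, 134 and 121 CPM in T libraries. All 9 mPTCL values lay below the NKT and T values and overlapped with NK. Pcna fell in mPTCL by a log2 fold change of −0.70 ± 0.19 against NKT cells (adjusted p = 0.00546) and −0.63 ± 0.20 against T cells (adjusted p = 0.0191). Against NK cells it was −0.26 ± 0.22 and not called (adjusted p = 0.429). Without T replicate 1 or 2, the difference from T cells was −0.58 and −0.61 and not called (adjusted p = 0.0859 and 0.0728).

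Both Pcna promoter peaks, which are also annotated to AV099323, took part. The peak at chr2:132252918-132253418, over the gene's start, held 32.4, 57.6 and 87.8 CPM (lowest, median and highest) in mPTCL, against 115, 117 and 108 CPM in NKT and 98.0, 109 and 92.1 CPM in T libraries. The groups did not overlap. It was lower in mPTCL by −1.01 ± 0.22 against NKT (adjusted p = 0.000582) and −0.82 ± 0.22 against T cells (adjusted p = 0.00917). The peak next to it, chr2:132252369-132252869, was lower by −0.95 ± 0.29 (adjusted p = 0.00881) and −0.86 ± 0.30 (adjusted p = 0.0366). Both of these calls were lost in 7 of 9 alternatives, such as RLE size factors (−0.53 and −0.63). Over T the call was also lost in 11 of 18 fits without 1 library, and over NKT without NKT replicate 1 (−0.60, adjusted p = 0.165). Cyclic loess ended the calls of the first peak as well (−0.29 over both groups), as did the smaller deposited table (−0.42 over NKT and −0.32 over T). The first peak's call over T was also lost with scaling within each chromosome (−0.54). Without T replicate 1 (−0.71, adjusted p = 0.0786) or 2 (−0.65, adjusted p = 0.11) it was lost too. Highly accessible promoters as a class were lower in these comparisons: in the level bin that holds the first peak, the median was −0.76 over NKT and −0.60 over T, and 27.5% and 32.6% of the bin lay below it.

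Mcm2 held 30.0, 35.3 and 45.2 CPM (lowest, median and highest) in mPTCL, against 47.2, 40.9 and 83.8 CPM in NK, 51.5, 67.0 and 63.1 CPM in NKT and 49.7, 52.8 and 60.9 CPM in T libraries. The mPTCL values lay below all NKT and T values, and overlapped with NK at NK replicate 2. Mcm2 fell in mPTCL by −0.64 ± 0.23 against NK (adjusted p = 0.0465), −0.71 ± 0.20 against NKT (adjusted p = 0.00575) and −0.56 ± 0.21 against T cells (adjusted p = 0.044). The first call was lost without any one of 12 of the 18 libraries, of all groups. Its value moved most without NK replicate 3, to −0.24 (adjusted p = 0.575). The call against T cells was lost without any one of mPTCL replicates 1, 4 and 9, NKT replicates 2 and 3 or the 3 T libraries, with values of −0.62 to −0.46 and adjusted p-values up to 0.197.

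Most reads of Mcm2 came from the peak at its start, chr6:88898408-88898908. It held 25.1, 29.0 and 38.99 CPM (lowest, median and highest) in mPTCL, against 33.2, 40.1 and 65.0 CPM in NK, 60.8, 83.1 and 79.2 CPM in NKT and 52.2, 59.7 and 71.0 CPM in T libraries. No mPTCL value reached an NKT or T value. The difference was −1.26 ± 0.22 over NKT (adjusted p = 5.97e-05) and −0.97 ± 0.23 over T (adjusted p = 0.00317), and both calls held without any single library but not under cyclic loess (−0.55 and −0.54). The call over T was also lost in the smaller table (−0.45, adjusted p = 0.161). In its bin of promoter peaks 11.1% and 14.5% were lower still. The second peak, chr6:88893388-88893888, is deposited as a promoter although its centre lies 5142 bp inside the gene from the RefSeq start. It ran from 4.41 to 11.2 CPM in mPTCL and from 1.60 to 4.25 CPM in NKT libraries, with no overlap, and the difference of 0.99 ± 0.58 was not called (adjusted p = 0.16).

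Mcm3 was less accessible in the lymphomas than in T and NKT cells. It held 27.2, 43.9 and 56.0 CPM (lowest, median and highest) in mPTCL, against 36.9, 51.7 and 69.6 CPM in NK, 59.4, 75.9 and 61.9 CPM in NKT and 89.5, 111 and 91.3 CPM in T libraries. T libraries lay above all others, though the differences of NK over T (−0.87 ± 0.27, adjusted p = 0.0604) and NKT over T (−0.56 ± 0.25, adjusted p = 0.22) were not called, and mPTCL libraries lay below NKT and T libraries. Mcm3 fell in mPTCL by −1.15 ± 0.20 against T cells (adjusted p = 0.000124), a call that held without any single library and under all 10 alternatives, with values from −1.16 to −0.85. Against NKT cells it fell by −0.59 ± 0.20 (adjusted p = 0.017), but not without NKT replicate 2 (−0.47, adjusted p = 0.129). Against NK cells it was −0.28 ± 0.23 (adjusted p = 0.42).

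The Mcm3 promoter peak, chr1:20820038-20820538, which covers the printed runs and is shared with Gm20587, held 20.9, 40.1 and 57.0 CPM (lowest, median and highest) in mPTCL, against 33.2, 50.6 and 60.3 CPM in NK, 49.6, 77.7 and 63.6 CPM in NKT and 93.8, 106 and 88.8 CPM in T libraries. It was lower in mPTCL than in T cells by −1.29 ± 0.24 (adjusted p = 0.000215) without overlap, where the median of its bin was −0.53 and 5.51% of that bin lay below it. Over NKT it was −0.71 ± 0.24 (adjusted p = 0.0173), close to that bin's median of −0.70, and the groups overlapped. This call over NKT was lost in 7 of 9 alternatives, such as RLE size factors (−0.25), and in 12 of 18 fits without 1 library. The flanking peak at chr1:20824845-20825345 ran from 0.873 to 12.8 CPM in mPTCL, against 22.4, 21.2 and 18.2 CPM in NKT and 11.7, 26.8 and 24.8 CPM in T libraries. It was lower by −1.75 ± 0.48 over NKT (adjusted p = 0.00485) and −1.80 ± 0.50 over T (adjusted p = 0.00986). The call over T was lost without T replicate 2 (−1.51, adjusted p = 0.0957) or 3 (−1.69, adjusted p = 0.064). In the smaller deposited table both calls were lost, at −1.15 over NKT (adjusted p = 0.0944) and −1.28 over T (adjusted p = 0.0891).

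Mcm5 differed from Mcm2 and Mcm3 in that its values in mPTCL and NKT libraries overlapped. It held 60.3, 86.0 and 93.8 CPM (lowest, median and highest) in mPTCL, against 113, 90.5 and 179 CPM in NK, 81.8, 82.4 and 73.6 CPM in NKT and 88.6, 124 and 115 CPM in T libraries. The NK library with 179 CPM, replicate 3, lay far above the rest. Mcm5 was lower in mPTCL than in NK cells by −0.67 ± 0.20 (adjusted p = 0.0166), but not without that library (−0.34, adjusted p = 0.332). The difference was 0.026 ± 0.19 over NKT (adjusted p = 0.922) and −0.45 ± 0.19 over T (adjusted p = 0.0715). In NK over NKT it was 0.70 ± 0.24 and just missed the threshold (adjusted p = 0.0518), but it was called in 9 of 11 alternatives, such as DESeq2 (0.86, adjusted p = 0.0042) and scaling within each chromosome (0.82, adjusted p = 0.00983), and in 3 of 18 fits without 1 library.

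The peaks of Mcm5 went separate ways. At the start, the promoter peak chr8:75109091-75109591 held 34.4, 57.9 and 62.8 CPM (lowest, median and highest) in mPTCL, against 68.4, 50.6 and 88.8 CPM in NK, 67.9, 76.8 and 71.9 CPM in NKT and 72.4, 107 and 95.8 CPM in T libraries. It was lower in mPTCL than in T cells by −0.80 ± 0.22 (adjusted p = 0.0105) without overlap, and so was the promoter peak beside it, chr8:75108589-75109089 (−0.86 ± 0.30, adjusted p = 0.0364), where the groups overlapped. In their bins of promoter peaks, 34.6% and 17.2% were lower still. The call of the first was lost without T replicate 2 (−0.57, adjusted p = 0.152) or 3 (−0.78, adjusted p = 0.0558), and that of the second without any 1 of 12 libraries. Among 9 alternatives, the call of the first was lost in 3 and that of the second in 7. With RLE size factors the values were −0.55 and −0.62, and cyclic loess gave −0.26 and −0.63, none of them called.

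Inside the gene, the exonic peak chr8:75117278-75117778 was open in NK cells. It held 0, 1.95 and 4.80 CPM (lowest, median and highest) in mPTCL, against 12.4, 16.9 and 50.8 CPM in NK, 0, 0.606 and 0.822 CPM in NKT and 0, 3.46 and 0.935 CPM in T libraries. Every NK library lay above every other library. The difference was −3.56 ± 0.74 in mPTCL over NK (adjusted p = 0.00196), 5.38 ± 1.15 in NK over NKT (adjusted p = 0.00209) and 4.16 ± 1.14 in NK over T (adjusted p = 0.0293). The peak rests on 57 reads in mPTCL, 46 in NK, 10 in NKT and 6 in T libraries. NK replicate 3 carried most of the level: without it the difference in mPTCL over NK was −2.62 (adjusted p = 0.0939) and in NK over T 3.36 (adjusted p = 0.158), and the call in NK over NKT was kept. The call in NK over T was also lost without T replicate 1 (3.77, adjusted p = 0.102) or 3 (3.78, adjusted p = 0.114). The flanking peak chr8:75132302-75132802, 23043 bp past the start, ran from 3.92 to 15.1 CPM in mPTCL and from 1.21 to 2.33 CPM in NKT libraries. It was higher in mPTCL by 2.19 ± 0.70 (adjusted p = 0.0136), though not without NKT replicate 2 (1.95, adjusted p = 0.0878) or under cyclic loess (0.51). Over T the difference was 2.07 ± 0.78 without overlap, on 8 T reads, and just missed the threshold (adjusted p = 0.0556). It was called over T in 5 of 7 alternatives and in 8 of 18 fits without 1 library.

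Set against their own chromosomes, Pcna lay above 20.3% of the genes of chromosome 2, Mcm2 above 18.5% of those of chromosome 6 and Mcm3 above 27.9% of those of chromosome 1 in mPTCL over NKT. In mPTCL over T these shares were 22.3% for Pcna, 23.6% for Mcm2 and 6.03% for Mcm3. With scaling within each chromosome, Mcm3 was the only one of these 3 still called over T, and over NKT Mcm3 was not called.

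Mki67, the gene of the proliferation marker Ki-67, did not pass the test in any comparison. It held 30.4, 50.9 and 73.1 CPM (lowest, median and highest) in mPTCL, against 59.5, 43.1 and 55.3 CPM in NK, 54.8, 53.6 and 48.1 CPM in NKT and 66.0, 64.4 and 56.0 CPM in T libraries. The mPTCL range covered all normal values. The difference was −0.042 ± 0.24 over NK (adjusted p = 0.923), −0.021 ± 0.21 over NKT (adjusted p = 0.943) and −0.27 ± 0.21 over T (adjusted p = 0.334). At its promoter peak, chr7:135716244-135716744, the mPTCL libraries ran from 26.5 to 65.4 CPM, against 73.5, 68.4 and 65.4 CPM in T libraries, the highest of the first just below the lowest of the second. The difference of −0.63 ± 0.24 just missed the threshold (adjusted p = 0.0553). Its 5' UTR peak, chr7:135715675-135716175, ran from 4.67 to 14.0 CPM in mPTCL and was called in no comparison.

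**Figure D4:**
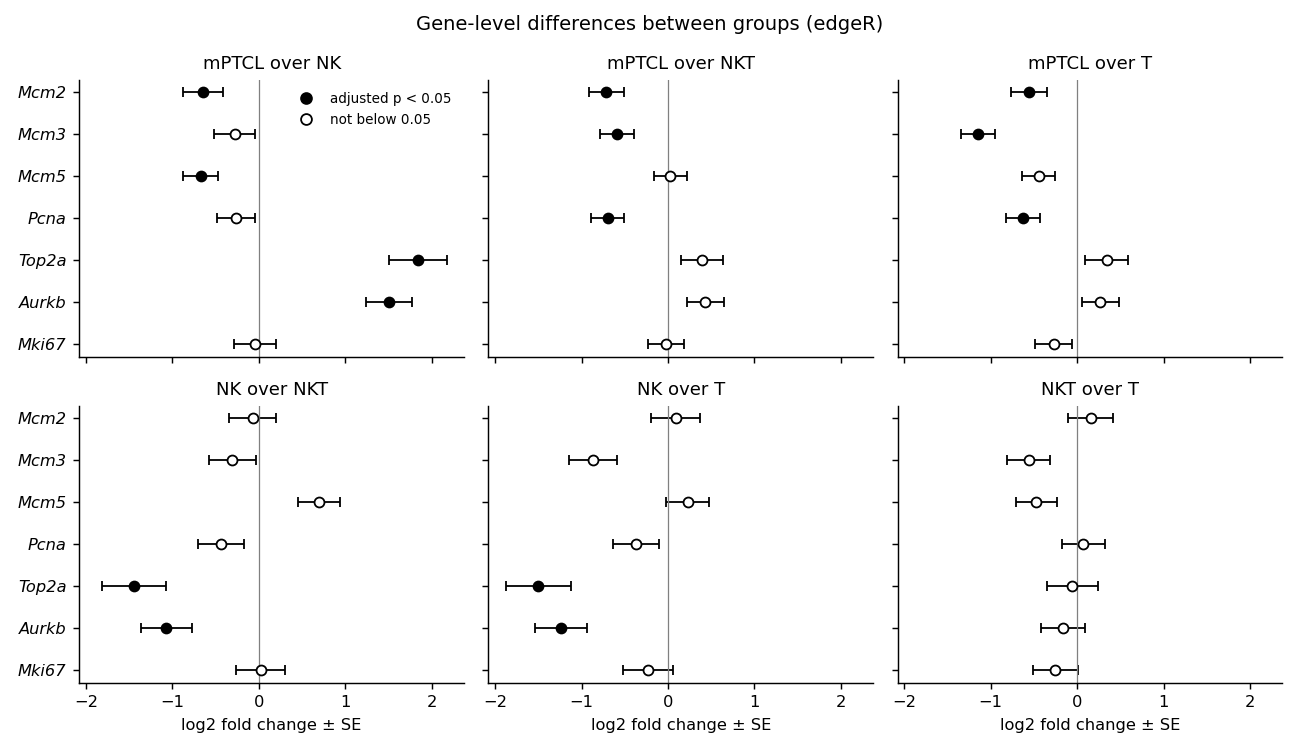
Log2 fold change ± SE of each gene in the 6 comparisons, first-named group over second, from the fit of counts summed over peaks. Filled points have an adjusted p under 0.05. Top2a and Aurkb stand to the right in mPTCL over NK and to the left in NK over NKT and NK over T, while Mcm2, Mcm3 and Pcna stand to the left in mPTCL over NKT and over T.

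Counted by peak, 4 of 21 were called in mPTCL over NK, 3 higher and 1 lower, where 9.79% of all peaks were called, 6.03% higher and 3.76% lower. In mPTCL over NKT 3 were called higher and 5 lower, where 42.6% of peaks were called, 23.2% higher and 19.4% lower, and in mPTCL over T 7 were called, all lower, where 19.7% were called and 11.4% called lower. The 3 peaks called higher over NKT are the flanking peaks of Top2a, Aurkb and Mcm5, and all lie outside promoters. Of the 10 promoter peaks, 4 were called lower over NKT, against 30.3% of all promoter peaks, and 6 were called lower over T, against 18% of all promoter peaks. All but the second Mcm2 promoter peak lie in level bins where 40.9% to 68.3% of peaks were called lower over NKT. Over T, 18.6% to 49.3% of the peaks in these bins were called lower. The second Mcm2 peak lies in a weaker bin, with shares below those of all promoter peaks. The member counts were not tested against these shares. In NK over NKT and in NK over T 4 peaks each were called, where 17.1% and 4.8% of peaks were called, and in NKT over T 1, where 5.23% were. The 6 promoter peaks belong to Pcna, Mcm5, Mcm2 and Mcm3. Scaling by DESeq2's size factors within edgeR (RLE) gave 79.2% higher among called peaks over NKT, against 54.5% with TMM, and 63.5% over T, against 42.0%. Among called genes over NKT it gave 66.5%, against 55.8%.

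The wider pathway was read from 101 further genes in 4 lists, all of which have a peak. In mPTCL over NKT, 15 were called higher and 30 lower, 44.6% in all, beside 45.6% of all genes (25.5% higher and 20.2% lower). Their median log2 fold change was −0.25, beside 0.059 over all genes. In mPTCL over T the counts were 8 higher and 27 lower, 34.7% in all, beside 30.9% of all genes, of which 16.2% were higher and 14.7% lower. The median over T was −0.28, beside 0.12 over all genes. In mPTCL over NK the counts were 15 higher and 15 lower, 29.7% in all, beside 21.5% of all genes, with a median of 0.12 beside 0.13. The mitosis list of 42 genes gave 4 higher and 6 lower over NK, 4 and 12 over NKT, and 2 and 12 over T. In either direction 23.8%, 38.1% and 33.3% were called, beside 21.5%, 45.6% and 30.9% of all genes. By direction, 11.2% of all genes were called higher and 10.3% lower over NK. These shares were 25.5% and 20.2% over NKT, and 16.2% and 14.7% over T. The origin licensing and helicase list of 20 genes gave 3 higher and 6 lower over NK, 3 and 8 over NKT, and 2 and 7 over T, which is 45%, 55% and 45% called. The 26 genes of the replication fork and nucleotide supply had 5 higher and 3 lower over NK, 6 and 7 over NKT, and 3 and 5 over T, which is 30.8%, 50% and 30.8% called. For the 13 genes of S-phase entry the counts were 3 and 0 over NK, 2 and 3 over NKT, and 1 and 3 over T, which is 23.1%, 38.5% and 30.8% called. None of these list shares was tested against the genome.

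Of the 7 listed genes on chromosome 11, 2 were called higher and 0 lower over NK, 3 and 0 over NKT, and 3 and 1 over T, where 28.8%, 40.9% and 34.1% of the chromosome's genes were called higher. Of the 94 on other chromosomes, 13 were called higher and 15 lower over NK, 12 and 30 over NKT, and 5 and 26 over T. Among all genes, 11.2% were called higher and 10.3% lower over NK, 25.5% and 20.2% over NKT, and 16.2% and 14.7% over T. In NK over NKT 1 listed gene was called higher and 9 lower, 9.90% of the 101, beside 14.8% of all genes (8.51% higher and 6.28% lower). In NK over T it was 1 higher and 8 lower, 8.91% of the 101, beside 5.48% of all genes (3.29% higher and 2.19% lower).

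**Figure D5:**
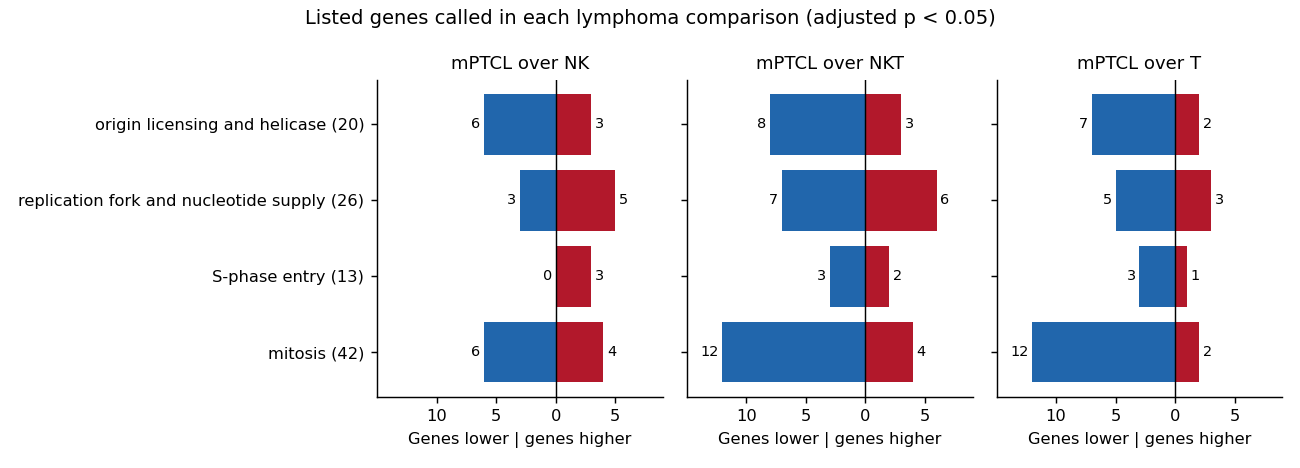
Number of genes of each list called lower (left of 0) and higher (right of 0) in the 3 lymphoma comparisons, with the number of genes measured in brackets. In the mitosis list of 42 genes, 12 were called lower over NKT and over T, where 20.2% and 14.7% of all genes were.

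Tk1, the thymidine kinase that recycles thymidine for DNA synthesis, had the largest rise of the listed genes over NKT and over T. It held 19.3, 27.5 and 39.5 CPM (lowest, median and highest) in mPTCL, against 5.28 to 10.5 CPM in NKT and 5.78 to 8.64 CPM in T libraries, with no overlap. It rose by 1.80 ± 0.33 over NKT (adjusted p = 0.000147) and 1.84 ± 0.35 over T (adjusted p = 0.000409). Tk1 lies on chromosome 11 too, where the medians were 0.49 and 0.58. Tyms, which makes thymidylate, rose by 2.23 ± 0.67 over NK (adjusted p = 0.0178) and 1.19 ± 0.45 over NKT (adjusted p = 0.0316), at 8.73 to 27.2 CPM in mPTCL, 2.05 to 4.31 CPM in NK and 1.32 to 9.23 CPM in NKT libraries. In the shallow NK libraries such values are a few reads each, so the rise over NK is poorly measured. The mPTCL and NKT ranges of Tyms overlapped. On its own chromosome, 5, the median was 0.62 over NK and 0.59 over NKT. The cyclin gene Ccnb2 rose by 2.01 ± 0.47 over NK (adjusted p = 0.00345). It held 0, 12.3 and 12.9 CPM (lowest, median and highest) in NK and 19.3 to 40.8 CPM in mPTCL libraries. Espl1, which encodes the cohesin-cleaving protease separase, rose by 1.13 ± 0.29 over T (adjusted p = 0.00436), where the median of its own chromosome, 15, was 0.97.

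Among the listed genes that fell, Lig1, the DNA ligase that joins Okazaki fragments, held 42.5, 55.3 and 77.4 CPM (lowest, median and highest) in mPTCL and 103 to 131 CPM in NKT libraries, a fall of −1.10 ± 0.18 (adjusted p = 5.86e-05). Rpa3, a subunit of the protein that coats single-stranded DNA, fell by −1.23 ± 0.23 over NK (adjusted p = 0.000375) and −1.24 ± 0.21 over T (adjusted p = 0.000126). Incenp, the scaffold of the complex that holds Aurora B, fell by −1.05 ± 0.26 over NKT (adjusted p = 0.00219), at 15.7 to 58.7 CPM in mPTCL and 64.5 to 82.95 CPM in NKT libraries. Top2b, the paralogue of Top2a that is also used in resting cells, fell by −1.18 ± 0.19 over NK (adjusted p = 0.00012), at 72.5 to 134 CPM in mPTCL and 194 to 281 CPM in NK libraries. Over NK cells, Top2a and Top2b were thus called in opposite directions.

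The genes whose levels over the 18 libraries were most like those of Top2a were Borcs6 (Pearson r = 0.93) and Aurkb (r = 0.93). For Aurkb they were Gm16170 (r = 0.951) and Borcs6 (r = 0.95). All of these lie on chromosome 11, whose median moved between libraries, and the part of that shift in the likeness was not tested. The other members had their closest genes elsewhere in the genome, apart from Ly96, which lies on chromosome 1 with Mcm3 (r = 0.903). For Pcna they were Eed (r = 0.91), a Polycomb subunit, and Gm10138 (r = 0.906), and for Mcm2 Arhgap15 (r = 0.884) and 1810019N24Rik (r = 0.878). For Mcm3 the second was Ccdc173 (r = 0.898), for Mcm5 the 2 were Nup35 (r = 0.825) and Cdkn3 (r = 0.821), and for Mki67 they were Shf (r = 0.789) and Ndufa12 (r = 0.776). The libraries differ in depth and group, so these values describe likeness of level and were not tested.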

How the data were processed

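The deposited table holds whole-number read counts per peak for 18 libraries, not normalized, which the authors made with MACS2 2.1.2, bedtools and edgeR 3.24.3 on mm10, per the submitters' processing notes. Aligner, duplicate filter, any Tn5 shift and how peaks were chosen: not given in the sources used here. Reads were amplified by PCR with no molecular identifier stated, so counts may include copies of 1 fragment. Log2 CPM values that the authors also deposited equal those recomputed here with a prior count of 2 (largest difference 0.00637) and were not otherwise used. Whether positions count from 0 or 1 is not stated.

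Counts were scaled by TMM, filtered by filterByExpr by group and fitted with edgeR 4.0.16 in R 4.3.3 (glmQLFit, glmQLFTest; 4 groups in 1 fit, 14 residual degrees of freedom) for 6 comparisons, per peak (61220 tested, biological coefficient of variation 0.431) and per gene (20326 tested, 0.297). P-values are two-sided and Benjamini-Hochberg adjusted over all features, with a threshold of 0.05. The fit was tested on simulated data. No 2 libraries of a group agreed within counting noise (lowest chi-square per degree of freedom 2.18). Chromosome 11 values were tested by exact permutation of libraries. Alternatives used limma 3.58.1, DESeq2 1.42.0, other scalings and filters, the smaller deposited table and each library left out. The mPTCL numbers are accession order only. The members, lists and the rule for named genes (the members, the 2 highest and 2 lowest called list genes per lymphoma comparison, the 2 nearest genes on each side of Top2a and Aurkb, and the 2 most alike genes per member) were chosen with earlier results of these data known. Of these, 1 list gene that this rule names is not reported here.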

Additional observations from a re-analysis of the deposited data

How the results depend on the processing

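Here "over NK", "over NKT" and "over T" mean mPTCL over that group. Top2a and Aurkb stayed called higher in mPTCL over NK under all 10 alternatives (1.27 to 2.06 and 0.94 to 1.75) and without any single library (1.63 to 1.999 and 1.30 to 1.83). Over NKT, Aurkb became called in 7 of 10 alternatives (0.52 to 0.72). The falls were less stable: Mcm2 over T was not called in 7 of 10 alternatives and over NK in 5, Mcm3 over NKT in 5 (−0.19 with promoter peaks alone), Pcna over T in 3 and over NKT in 2 (−0.45 under cyclic loess, −0.38 in the smaller table), and Mcm2 over NKT in 2. The flanking Aurkb peak at chr11:69053676-69054176 reversed over NKT under cyclic loess (−0.024). Other scalings moved the median over all genes from 0.059 to between −0.056 and 0.19 over NKT. The cause was not tested.

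Cyclic loess gave 11611 called peaks over NK (5996 as reported), 6818 over NKT (26096) and 7272 over T (12060), of which 1 and 2 member peaks over NKT and T, 5186 genes over NKT (9271), 1887 in NK over T (1114) and 546 in NKT over T (924), and 1 member gene over NKT and 1 over T. The smaller table gave 7008 peaks over NKT and 4797 over T, with 2 and 1 member peaks, and 3926 genes over NKT, 3276 over T (6280), 1338 in NK over NKT (3006) and 680 in NK over T, with 1 member gene over T. A mean count of at least 20 left 12052 peaks and 3 member peaks over NKT. DESeq2 gave 18305 peaks over T, 1672 genes in NK over T and 1497 in NKT over T. Promoter peaks alone gave 5220 genes over NKT, 4099 over T, 1330 in NK over NKT, 475 in NK over T and 202 in NKT over T, with 2 member genes over NK and 1 each in NK over NKT and NK over T. Scaling within chromosomes left 1 member gene over T. Fits of only the 2 groups compared called 4114 genes in NKT over T, 2 of them members. With the replicate number as a block, 1508 genes were called in NKT over T. The same-numbered libraries correlated at only −0.065 to 0.101, which shows no clear pairing, but so few libraries cannot exclude it. Mcm5 was called in NK over NKT with the block (0.78, adjusted p = 0.025), as in 9 of 11 alternatives, and the block changed no other call of a member gene. It ended those of the Aurkb promoter peak and of the peak at chr11:69040904-69041404 in NK over NKT and in NK over T.

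Without 1 library in turn, called peaks ran from 3394 to 6964 over NK, 14458 to 27609 over NKT and 6048 to 13055 over T, and member peaks from 2 to 5, 5 to 8 and 2 to 9. Called genes ran from 2748 to 4612 over NK, 3752 to 6663 over T, 1442 to 3699 in NK over NKT, 439 to 1669 in NK over T and 324 to 1009 in NKT over T. Member genes ran from 2 to 4 over NK, 1 to 4 over T, and 0 to 3 in NK over NKT and in NK over T. Relative to chromosome 11, Top2a over NK ran from 0.93 to 1.31, Aurkb over NK from 0.67 to 1.09 and Aurkb over T from −0.36 to −0.24, the last called without mPTCL replicate 3 or 7. NK depth limits what low peaks there can show.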
